A study of Mus musculus with 18 samples.

Results

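The muscle-poor tumours of the AKXD panel are 5 of its 18 mammary tumour pools, those of strains 7, 9, 10, 25 and 28. They were chosen as the pools lowest in the skeletal muscle miRNAs miR-1, miR-133a, miR-133b and miR-206, and they are set here against the other 13 pools. All 18 pools came from F1 offspring of AKXD recombinant inbred strains (bred from AKR/J and DBA/2J mice) and FVB/N-TgN(MMTV-PyVT)634Mul mice, so both sides carry the same transgene, polyoma middle T driven by the mouse mammary tumour virus promoter, which is active chiefly in mammary epithelium. Small RNA of snap-frozen tumours was pooled by strain and sequenced as 1 library per strain. The labels give no age of the mice and no count of tumours in a pool. No treatment is named, and a strain has n = 1. The split was made on these same libraries, so the comparison of the 5 pools with the 13 is a description and carries no p-value.

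MicroRNAs are short RNAs that pair with messenger RNAs through their seed, bases 2 to 8, and lower the output of those messages. miR-1, miR-133a, miR-133b and miR-206 are made in striated muscle cells, where they take part in myoblast differentiation, and miR-206 is known from skeletal muscle in particular. Mammary tumours of mice grow in fat pads that lie beside the muscle of the body wall. In bulk RNA, fewer muscle cells and less muscle miRNA per cell cannot be told apart.

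The muscle miRNAs that set the split and could be matched to RefSeq (GRCm38.p6) are shown first, 5′ to 3′, with the seed in capitals. They come from neighbouring genes on the plus strand of chromosome 1, Mir206 (mature arm at 20679055 to 20679076) and Mir133b (20682834 to 20682855), and they do not share a seed.
miR-206: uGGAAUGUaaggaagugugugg
miR-133b: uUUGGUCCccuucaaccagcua
The next 6 are miRNAs outside the muscle rows: those of brown fat and pancreas, the more abundant arm of the miR-140 hairpin, and miR-135a, whose median was over 1 log2 higher in the muscle-poor pools. The first 4 were lower in the muscle-poor pools and the last 2 were higher, and no seed is shared among them.
miR-365: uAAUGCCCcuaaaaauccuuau
miR-193b: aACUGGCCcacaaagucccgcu
miR-217: uACUGCAUcaggaacugacugga
miR-216a: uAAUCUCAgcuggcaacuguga
miR-140*: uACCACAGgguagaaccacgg
miR-135a: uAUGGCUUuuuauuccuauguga
The last 3 are abundant miRNAs that were far lower in the pool of strain 28 than in the other 17, which bears on every level given for that pool.
let-7c: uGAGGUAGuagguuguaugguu
miR-21: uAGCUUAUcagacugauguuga
miR-146b: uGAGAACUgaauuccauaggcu

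The libraries held 4357597 to 14943628 miRNA reads, 4357597 to 13564310 of them in the muscle-poor pools. Epithelial miRNAs were abundant in all 5 muscle-poor pools, where miR-200c, which keeps epithelial cells from taking on a mesenchymal state, lay at 12837 to 22990.2 CPM, here reads scaled to 1e6 miRNA reads of the library other than those on the muscle rows. On the same scale, strain 28 stood apart from the rest of the panel. There let-7c was at 15435 CPM against 153108 CPM or more in the other 17 pools, miR-21 at 489 against 47464 or more, and miR-146b at 1679.6 against 32791 or more. The opposite arms of those hairpins were not low there: miR-21* was at 206 CPM against at most 110.0 elsewhere, and miR-146b* at 82.4 against at most 70.1. With these 3 large rows so low, the other rows of strain 28 take larger shares of its reads. Strains 10, 13, 14 and 20 were also set apart, a choice made with earlier results of these data known. When libraries were scaled by TMM (the trimmed mean of M values), they had the 4 lowest factors. These were 0.664, 0.801, 0.746 and 0.795, against 1.64 in strain 28, the highest. Values without some or all of these 5 pools are given beside the results they moved most.

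The 5 muscle rows (miR-1, miR-133a, miR-133a*, miR-133b and miR-206) took 2.24% of the reads in strain 7, 2.61% in strain 9, 2.61% in strain 10, 2.72% in strain 25 and 6.27% in strain 28. In the other 13 pools they took 7.23% to 20.3% (median 12.0%). The muscle-poor pools are low in muscle miRNAs but not free of them. Strains 7, 9, 10 and 25 lie close together, and strain 28 lies nearer to the lowest of the 13 than to them: its share (95% Clopper-Pearson interval 6.25% to 6.29%) is just inside the split, and strain 3 (interval 7.21% to 7.25%) and strain 22 (7.27%) are just outside. These intervals hold only the error of counting reads, among which copies made by PCR are included. With let-7c, miR-21 and miR-146b taken out of every total, strain 28 stood at 6.37%, strain 22 at 10.0% and strain 3 at 10.6%, so the sides lay further apart.

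**Figure D1:**
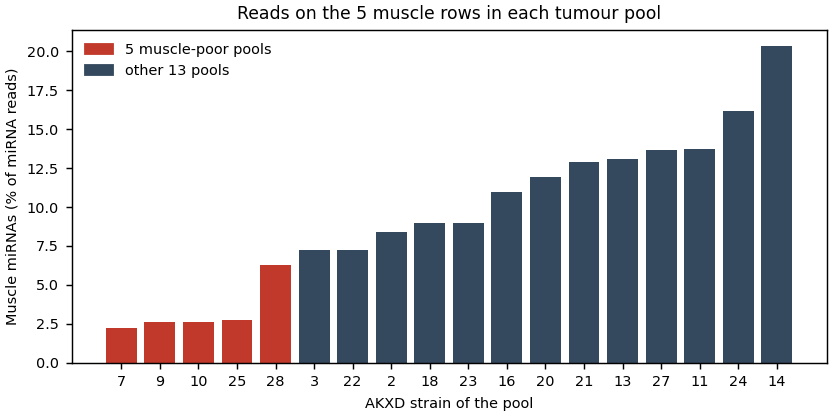
Share of miRNA reads on the 5 muscle rows (percent, 1 bar per pool, ordered by share), with the muscle-poor pools in red. Strains 7, 9, 10 and 25 sit between 2.24% and 2.72%, strain 28 at 6.27% is next to strain 3 at 7.23%, and strain 14 is highest at 20.3%.

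miR-1 made up nearly all of these reads. As CPM of the whole library it was at 21251 CPM in strain 7, 25030.1 in strain 9, 25251 in strain 10, 26230.0 in strain 25 and 61170.0 in strain 28. In the 13, the level was 68904 to 195236 CPM (median 114959). The sides do not overlap, which the choice of pools fixes, and miR-1 was number 11 by abundance in strains 7 and 25 and number 12 in strains 9 and 10, but number 5 in strain 28, next to the ranks from 1 to 4 in the 13. miR-206, which shares the seed of miR-1 by background knowledge of the family, was at 1117 CPM in strain 7, 956 in strain 9, 828 in strain 10, 903 in strain 25 and 1244 in strain 28. Against this, the 13 pools stood at 1548 to 7830.3 CPM (median 3348). Its 5 lowest values were those of the muscle-poor pools too, with strain 28 highest among them.

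miR-133a, made from the same transcripts as miR-1, was at 59.9 CPM in strain 7, 62.7 in strain 9, 16.6 in strain 10, 64.0 in strain 25 and 223 in strain 28. Levels in the 13 ran from 122 to 777 CPM (median 314). Here the sides overlap: strain 28 was above strains 13, 20 and 2 (at 122, 136 and 216 CPM), whereas strain 10 was the lowest of the panel. miR-133b, from the transcript of miR-206, was at 8.03 CPM in strain 7, 8.18 in strain 9, 1.91 in strain 10, 8.33 in strain 25 and 25.6 in strain 28. The range over the 13 was 12.6 to 76.7 CPM (median 37.9). Strain 28 again lay within the range of the 13, above 4 of them, and strain 10 was lowest. miR-133a* was at 3.22 CPM in strain 7, 6.73 in strain 9, 3.74 in strain 10, 6.58 in strain 25 and 9.92 in strain 28, below the 11.0 CPM of the lowest of the 13. miR-133a and miR-133b differ little in sequence, so reads may be shared between these rows. Under TMM scaling, none of the 5 rows overlapped between the sides.

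**Figure D2:**
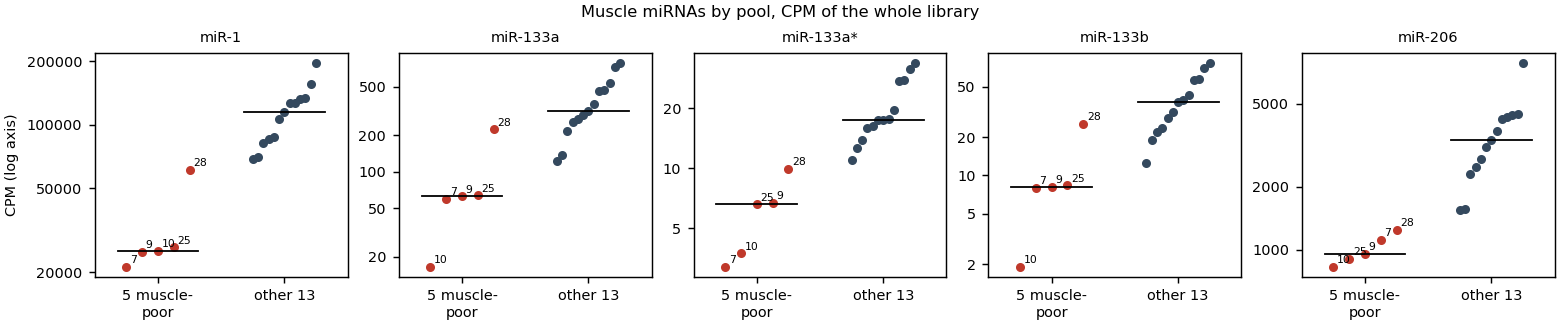
CPM of the whole library for the 5 muscle rows (log axes, 1 point per pool, spread sideways by rank, black line the median), with the muscle-poor pools in red and named. Strain 28 is the highest red point in all 5 panels, at 223 CPM of miR-133a, and strain 10 is far below the others for miR-133a (16.6 CPM).

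The muscle rows did not keep fixed ratios to one another. miR-1 exceeded miR-206 by 19.0 to 49.2 times in the 5 pools and by 19.8 to 54.9 times in the 13, so the sides overlap in this ratio. miR-1 exceeded miR-133a by 1520.2 times in strain 10 and by 274 to 410.1 times in the other 4 muscle-poor pools. Among the 13 the ratio was 1038 in strain 13, 843 in strain 20 and 622 in strain 14, and 131 to 380.0 in the remaining 10. The 4 highest ratios are those of strains 10, 13, 20 and 14, which lie on both sides. Strain 28, which stands apart too, had the lowest ratio of the 5 muscle-poor pools, at 274. miR-133a to miR-133b was steadier, at 7.46 to 8.69 in the 5 and 6.63 to 12.8 in the 13. The part of library differences in these ratios was not tested.

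Other miRNAs known from striated muscle were then described, with the muscle rows taken out of the library total so that their share cannot push other rows down. All CPM from here on are of the non-muscle reads. miR-486, which is made in skeletal muscle, heart and red blood cells, was at 72.9 CPM in strain 7, 43.1 in strain 9, 69.7 in strain 10, 66.7 in strain 25 and 135 in strain 28. The other 13 pools held 82.4 to 269 CPM (median 155). Strains 7, 9, 10 and 25 lay below all 13, and only strain 28 reached into their range, above strains 2, 13 and 20. The median of the 5 was 2.20-fold lower (-1.14 log2), and the SD among the 13 was 0.44 log2. Without strain 28 the ranges no longer overlapped and the median difference was -1.17 log2. It was -0.97 log2 with the muscle rows kept in the total, -0.88 under TMM and -0.77 under median-of-ratios scaling, each short of the 1 log2 used here as the mark of a difference. miR-499, from an intron of a slow-muscle myosin gene, had 0 to 3 reads per muscle-poor pool and 0 to 36 per pool in the 13. miR-208b, also of a myosin gene, is listed at 0 in all 5 and in 6 of the 13, and reached 13 reads in strain 27. Its 0 reads over strains 7, 9, 10 and 28 allow at most 0.0898 CPM of the whole library (3 counts over these 4 pools). Strain 25 is left out of that limit because a single read is written there as 0.

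Outside the muscle rows the profiles of the 2 sides were close. The 282 miRNAs averaging 10 CPM or more over the pools were compared, and the difference of medians (5 pools minus 13, in log2(CPM + 1), which understates changes of low miRNAs) had a median of 0.05 log2 with quartiles of -0.19 and 0.27, and 235 miRNAs (83.3%) were less than 0.5 log2 apart. Medians at least 1 log2 apart were found for 6 miRNAs (2.13%): 4 were lower in the muscle-poor pools (1.42%) and 2 higher (0.709%). No miRNA had ranges that did not overlap between the sides (0 of 282, 0%). Since these pools were picked from the same libraries, nothing is read from these shares. With the muscle rows kept in the total the median over all miRNAs was 0.18 log2, so that total raises every value. At least 3 of the 5 pools lay below all 13 for 5 of the 282 miRNAs (miR-486, miR-378, miR-378*, miR-381 and miR-7a*). They lay above all 13 for 11 of the 282. Among these 11 were miR-140, miR-140*, miR-24, miR-34a, miR-96 and both arms of miR-125a, which were picked out after their values were seen. Nothing is read from these counts either. For scale, the median SD of a miRNA was 0.63 log2 among the 5 and 0.46 among the 13.

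**Figure D3:**
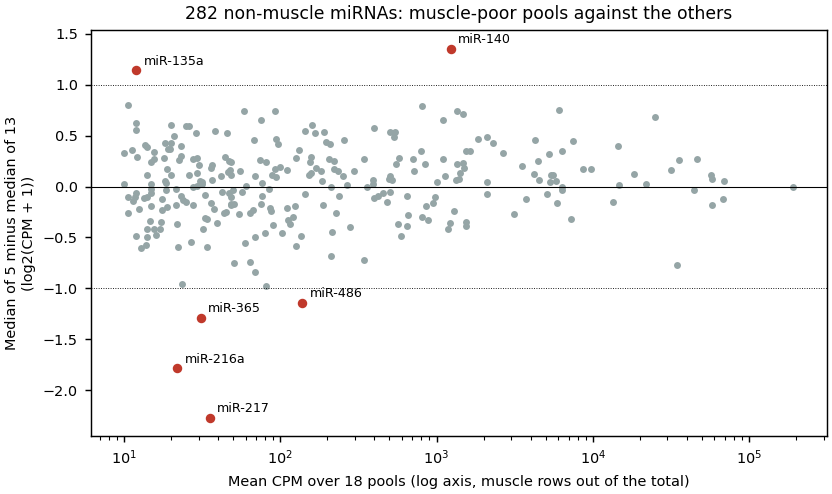
Median of the 5 muscle-poor pools minus median of the other 13 (log2(CPM + 1), y axis) against mean CPM (log x axis) for 282 miRNAs, 1 point each. The 6 red points lie beyond the dotted lines at 1 log2, from miR-217 at -2.27 to miR-140 at 1.35.

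Among the lower miRNAs, the brown fat miRNAs miR-365 and miR-193b both had lower medians. They are known to promote brown adipocyte differentiation, and Mir193b and Mir365-1 lie on the plus strand of chromosome 16 (mature arms at 13449570 to 13449591 and 13453895 to 13453916), although miR-365 also comes from Mir365-2 on chromosome 11. miR-365 was at 13.8 CPM in strain 7, 12.4 in strain 9, 6.37 in strain 10, 13.0 in strain 25 and 28.7 in strain 28. In the 13, the level was 12.9 to 125 CPM (median 33.2). All 5 lay below the median of the 13, but strains 13, 11 and 20 (at 12.9, 13.2 and 13.3 CPM) lay between strains 9 and 7. The median difference was -1.29 log2, and -1.01 to -1.34 over the alternatives tried. miR-193b was at 42.5 CPM in strain 7, 52.0 in strain 9, 21.1 in strain 10, 71.9 in strain 25 and 121 in strain 28. Against this, the 13 pools stood at 25.2 to 139 CPM (median 103). Its median was 1.97-fold lower (-0.98 log2), just short of the mark, and strain 28 was within the upper part of the 13.

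miR-378, which lies in an intron of the metabolic coactivator gene Ppargc1b and is abundant in fat, muscle and heart, was at 13854 CPM in strain 7, 18684 in strain 9, 43909 in strain 10, 17423 in strain 25 and 31301 in strain 28. Levels in the 13 ran from 24332 to 106685 CPM (median 31894). Strains 7, 9 and 25 lay below all 13, strain 28 near their median and strain 10 among their highest. The median was 1.71-fold lower (-0.77 log2), and it was -0.40 without strain 7 or without strain 25 and -0.45 without strain 9. Without strains 10 and 28 its ranges and those of miR-486 did not overlap, and these were the 2 such miRNAs of that setting. The opposite arm, miR-378*, was at 13.6 CPM in strain 7, 9.64 in strain 9, 4.93 in strain 10, 8.57 in strain 25 and 13.3 in strain 28. The range over the 13 was 9.87 to 27.0 CPM (median 14.1). It too was lower in all 5 than the median of the 13, with a median difference of -0.50 log2, and here strain 10 was lowest. For miR-378 strain 10 is high and for miR-378* it is low, so the arms of this hairpin do not rank the muscle-poor pools alike.

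The erythroid miRNAs miR-144 and miR-451, made from 1 transcript in red cell precursors, had lower medians as well, as did miR-486. miR-144 was at 13.6 CPM in strain 7, 10.6 in strain 9, 9.40 in strain 10, 23.1 in strain 25 and 33.9 in strain 28. The other 13 pools held 8.08 to 45.9 CPM (median 27.3). miR-451 was at 195 CPM in strain 7, 193 in strain 9, 207 in strain 10, 421 in strain 25 and 408 in strain 28. In the 13, the level was 152 to 729.6 CPM (median 342). The sides overlap for both: strains 25 and 28 lay above strains 7, 9 and 10, and strain 20 was the lowest of the panel. The median differences were -0.95 and -0.72 log2, and for miR-144 it was -0.59 without strain 9 or without strain 10. For miR-451, strains 25 and 28 (421 and 408 CPM) lay above the median of the 13 (342 CPM). Its lower median therefore rests on strains 7, 9 and 10 alone. miR-486 is made in muscle and in red cells, and the share of each in its level cannot be told apart here.

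The largest median differences of all were those of miR-217 and miR-216a, miRNAs best known from the exocrine pancreas, whose genes Mir216a and Mir217 are neighbours on the plus strand of chromosome 11 (mature arms at 28757018 to 28757039 and 28763761 to 28763783). miR-217 was at 1.64 CPM in strain 7, 9.19 in strain 9, 114 in strain 10, 4.85 in strain 25 and 84.1 in strain 28. Against this, the 13 pools stood at 2.24 to 80.6 CPM (median 48.2). miR-216a was at 0.938 CPM in strain 7, 6.19 in strain 9, 40.6 in strain 10, 3.11 in strain 25 and 74.2 in strain 28. Levels in the 13 ran from 3.10 to 47.9 CPM (median 23.8). Strains 7, 9 and 25 were low and strains 10 and 28 were the 2 highest of the panel for miR-217, so the muscle-poor pools hold both extremes. Across the panel miR-217 was either at or below 9.19 CPM or at or above 48.2 CPM, and 3 of the 5 muscle-poor pools and 6 of the 13 were at the low level. The median differences were -2.27 and -1.79 log2. Without strains 10, 13, 14, 20 and 28 they were -0.41 and -0.49 log2. Without the single strain 7, or the single strain 25, they were -0.74 and -0.52, and without strain 9 they were -1.14 and -0.92.

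Among the higher miRNAs, miR-140 had the largest median difference, and the opposite arm, miR-140*, had a higher median too. miR-140, known for its role in cartilage and described in mammary stem cells, was at 1150.5 CPM in strain 7, 1978 in strain 9, 725 in strain 10, 4237 in strain 25 and 2945 in strain 28. The range over the 13 was 499 to 1519 CPM (median 773). Strains 9, 25 and 28 lay above all 13, and strain 10 lay below their median. The median was 2.56-fold higher (1.35 log2) and it was 0.96 without strain 25 or without strain 28. miR-140*, the more abundant arm, was at 6330.1 CPM in strain 7, 7588 in strain 9, 6090.0 in strain 10, 18804 in strain 25 and 12800.5 in strain 28. The other 13 pools held 2461 to 7174 CPM (median 4491). All 5 were above the median of the 13, again with strains 25, 28 and 9 above their highest value, and the median difference was 0.76 log2. miR-24, made from 2 clusters with miR-23 and miR-27 and an inhibitor of proliferation in several cell types, was at 17175 CPM in strain 7, 36094 in strain 9, 24700.0 in strain 10, 40307 in strain 25 and 39346 in strain 28. In the 13, the level was 16080.2 to 27757 CPM (median 22514). The same 3 pools lay above all 13, among which miR-24 varied little (SD 0.20 log2), while strain 7 was near their lowest. With let-7c, miR-21 and miR-146b out of the total its median difference went from 0.68 to 0.26 log2, and it was 0.41 without strain 25 or without strain 28. Those rows take 1.76% of the non-muscle reads in strain 28 and 33.9% in strain 3, the highest of the 13 for miR-24. With them out of the total, strain 28 therefore no longer lies above all 13 for miR-24. miR-135a was at 17.6 CPM in strain 7, 28.2 in strain 9, 16.7 in strain 10, 4.79 in strain 25 and 10.6 in strain 28. Against this, the 13 pools stood at 2.45 to 28.0 CPM (median 7.02). Its median was 1.14 log2 higher (0.84 without strain 7 or without strain 9, 0.87 without strain 10 and 0.85 with a pseudocount of 5 CPM), and strain 11 of the 13 was close to strain 9, while strain 25 was below the median of the 13.

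**Figure D4:**
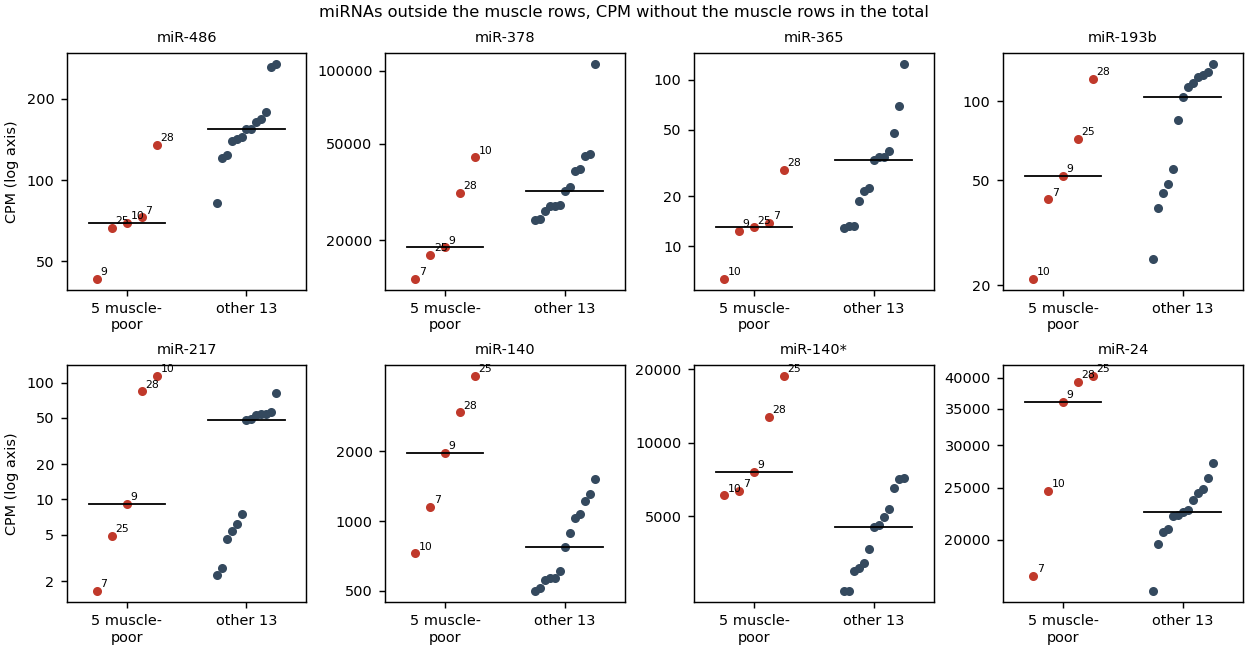
CPM of non-muscle reads for 8 miRNAs (log axes, 1 point per pool, spread sideways by rank, black line the median), with the muscle-poor pools in red and named. For miR-486 strains 7, 9, 10 and 25 lie below the lowest of the 13 (82.4 CPM), and for miR-140, miR-140* and miR-24 strains 9, 25 and 28 lie above their highest, while for miR-217 both sides hold high and low pools.

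The remaining miRNAs among the 10 lowest and 10 highest median differences were less than 1 log2 apart and overlapped between the sides. On the lower side were miR-434-3p of the imprinted Dlk1-Dio3 locus (-0.84 log2), miR-708 (-0.75) and miR-149 (-0.75). On the higher side were miR-467b (0.80), miR-96 (0.79) and miR-183* (0.74) of the miR-183 cluster, the p53-induced miR-34a (0.74), and miR-125a-5p (0.75) and miR-99a (0.72), which belong to families encoded together with let-7 genes. Strain 10 was low in several of these. miR-96 was at 703 CPM in strain 7, 1369.5 in strain 9, 283 in strain 10, 1398 in strain 25 and 1763 in strain 28, and miR-125a-5p at 1638 CPM in strain 7, 2418 in strain 9, 538 in strain 10, 1733 in strain 25 and 2425 in strain 28. The value of strain 10 was the lowest of the 5 for both, and for miR-125a-5p it was below all 13 (lowest 783 CPM). Several of these values rest on single pools. Without strain 28 the median difference was 0.25 for miR-467b, 0.31 for miR-96, 0.19 for miR-183* and 0.38 for miR-34a, and without strain 9 it was 0.25, 0.32, 0.24 and 0.38 in that order. Without strain 25 it was 0.35 for miR-467b, 0.31 for miR-96 and 0.19 for miR-183*. miR-99a was at 0.48 without strain 9 or without strain 28 and at 0.32 without strains 10, 13, 14, 20 and 28, the setting in which miR-183* was at 0.44. Under TMM miR-34a was at 0.28, miR-99a at 0.32 and miR-467b at 0.37. For miR-149 it was -0.47 without strain 7 or without strain 10. For miR-708 the difference was -0.43 without strain 7 or without strain 10 and -0.10 without strains 10 and 28.

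Marker lists of further cell types were summed next, and each list's median difference is read beside that of all 282 miRNAs (0.05 log2). Of these 282, 126 (44.7%) had a lower median in the muscle-poor pools and 156 (55.3%) a higher one, so a short list with all members on 1 side is no result about its members. Lists for brown fat, blood, vessels, stroma, and basal and luminal epithelium had medians below it, and the miR-200 family, the miR-183 cluster and smooth muscle above it. The brown fat and mitochondria-linked list had a median member difference of -0.77 log2 over its 5 tested members, of which 4 were lower and 1 was at least 1 log2 lower. In that list miR-455 was the member with a higher median (22.7 CPM against 16.6). Without strains 10 and 28 it was at least 1 log2 higher, and so it was without strains 10, 13, 14, 20 and 28. The erythroid list had -0.95 log2 with 3 of 3 lower. Its summed level was 246 to 577 CPM in the 5 pools (median 286) against 242 to 939.9 CPM in the other 13 (median 512). The leukocyte list had -0.23 log2, with 4 of 5 lower and none by 1 log2. The exception was its leading member miR-142-3p, a miRNA of all blood cell lineages, at 998 to 11457 CPM in the 5 pools (median 4636) and 1704 to 20609 CPM in the other 13 (median 4458). Both arms of miR-126, the endothelial miRNA, were lower by little (-0.27 log2), with miR-126-3p at 10794 to 15435 CPM in the 5 pools (median 12096) and 9734 to 20753 CPM in the other 13 (median 13443). The mesenchymal list of miR-199a-3p and miR-214 had -0.25 log2. The Dlk1-Dio3 list, imprinted miRNAs of chromosome 12, had 7 of 7 members with lower medians (-0.36 log2), none by 1 log2. Its most abundant members miR-379 and miR-541 had medians of 845 and 579.5 CPM in the 5 pools and 943 and 617 in the 13. miR-143, the leading miRNA of smooth muscle, was at 20164 to 62169 CPM in the 5 pools (median 42120.1) and 18061 to 50465 CPM in the other 13 (median 35147). All 3 rows of that list had higher medians (0.26 log2, -0.07 without strains 10, 13, 14, 20 and 28, which turns the direction). The part of these cell types in the other results was not tested.

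Epithelial miRNAs were described as the tumour side of the profile. All 5 members of the miR-200 family, which represses the transcription factors Zeb1 and Zeb2, had higher medians (0.32 log2, none by 1 log2), and their sum was 32953 to 59958 CPM in the 5 pools (median 47078) against 33246 to 52750.3 CPM in the other 13 (median 41853). All 3 members of the miR-183 cluster, which is raised in many carcinomas, had higher medians (0.45 log2), with miR-182 at 11331 to 23046 CPM in the 5 pools (median 17074) and 6846 to 18091 CPM in the other 13 (median 12954). For both lists the sides overlap, and with the muscle rows kept in the total the values were 0.48 and 0.60 log2. Under TMM they were 0.12 and 0.36. The proliferation-linked miR-17-92 cluster had 0.13 log2 with 5 of 6 higher (-0.22 without strain 28, which turns its direction), and miR-20a was at 1533 to 4164 CPM in the 5 pools (median 3539.9) and 1062 to 4013 CPM in the other 13 (median 2825). The let-7 family (0.06), the miR-29 family (0.11), the miR-30 family (-0.07), the gut and kidney list (0.06), the liver miRNA miR-122 (0.04) and the list of miR-21, miR-146b, miR-221 and miR-222 (-0.08) were within 0.15 log2 of 0, and the sign of each turned under at least 1 other scaling or set of pools. The luminal and mammary list of miR-148a and miR-375 had -0.18 log2 (-0.35 without strains 10, 13, 14, 20 and 28, -0.03 with the muscle rows in the total) and the basal list of miR-203 and miR-205 -0.27 (-0.75 without those 5 strains, -0.06 under median-of-ratios scaling). The Sfmbt2 intron cluster had a higher median in 10 of 11 tested rows (0.40 log2, 0.03 with let-7c, miR-21 and miR-146b out of the total and 0.08 without strain 28). Its rows are near-identical, so reads may be shared between them. Of the neural list, 2 of 3 tested members had higher medians (miR-9 and miR-9*), and miR-128 had a lower one (-0.42 log2). Its leading member miR-9 was at 1340.0 CPM in strain 7, 9874 in strain 9, 1620.5 in strain 10, 5950.2 in strain 25 and 1108 in strain 28. Levels in the 13 ran from 375 to 4372 CPM (median 1203). Strains 9 and 25 were the 2 highest of the panel, strain 28 lay below the median of the 13, and the median difference was 0.43 log2 (2.30 without strains 10 and 28).

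With the muscle rows removed, the tumour profile that was left was ordered nearly alike on both sides. Of the 20 most abundant miRNAs by median share, 19 were common to both sides (95% of either list), with miR-183 present only among the 20 of the muscle-poor pools and miR-30d only among those of the 13. In both, let-7c, let-7f and miR-21 were ranks 1 to 3. let-7c, of the differentiation-linked let-7 family, took 22.3% of non-muscle reads in strain 7, 19.5% in strain 9, 21.3% in strain 10, 17.2% in strain 25 and 1.54% in strain 28, against 15.3% to 24.9% in the 13 (median 19.5%). Strain 28 is the exception, and the medians of the sides differ by less than 0.1 percentage points. miR-148a, abundant in lactating mammary gland and milk, took 4.51% to 8.55% (median 5.29%) against 3.66% to 7.98% (median 5.99%). miR-30a took 3.61% to 7.34% (median 4.90%) against 2.96% to 5.92% (median 4.05%). Among the 20 most abundant of either side, miR-378 (number 10 in the 13 and number 14 in the muscle-poor pools) and miR-30d (number 20 and number 24) moved 4 places, and the rest moved at most 2. Further down, miR-140* was number 31 in the 13 and number 22 in the muscle-poor pools. The 10 most abundant miRNAs of the muscle-poor pools (4 let-7 members, namely let-7a, let-7b, let-7c and let-7f, with miR-21, miR-24, miR-30a, miR-143, miR-146b and miR-148a) took 73.3% of non-muscle reads in strain 7, 63.8% in strain 9, 68.3% in strain 10, 61.6% in strain 25 and 50.1% in strain 28, and 63.2% to 70.2% in the 13. Across the 282 miRNAs, the Spearman correlation between a muscle-poor pool and 1 of the 13 was 0.900 to 0.975 (median 0.95 over 65 pairs), and among the muscle-poor pools 0.910 to 0.971 (median 0.933 over 10 pairs). Among the 13 it was 0.919 to 0.985 (median 0.957 over 78 pairs). The muscle-poor pools were not closer to one another in this measure than to the 13. Strain 10 had the lowest median correlation to the 13, at 0.927, against 0.949 to 0.959 in the other muscle-poor pools. These are correlations across miRNAs, which are not independent replicates and share the wide range of abundances.

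**Figure D5:**
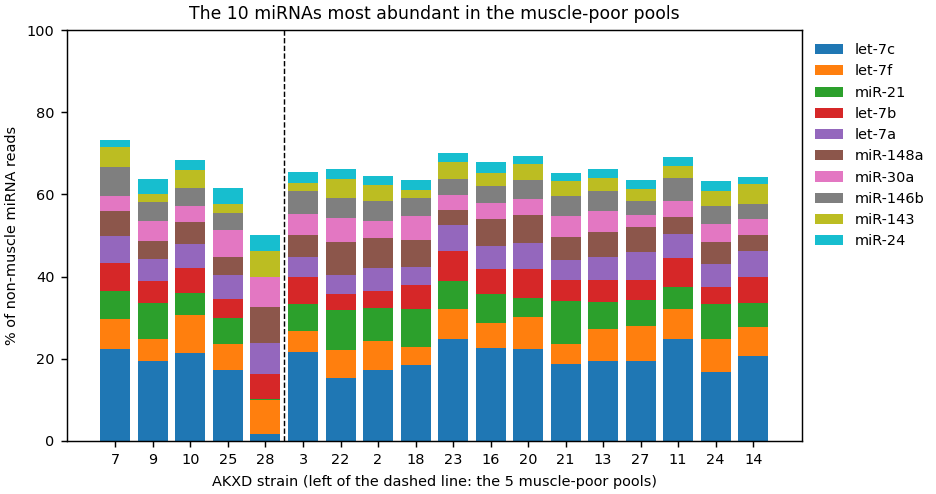
Share of non-muscle miRNA reads (percent) taken in each pool by the 10 miRNAs most abundant in the muscle-poor pools, with pools ordered by muscle share. The stacks reach 63.2% to 70.2% in the 13, and strain 28 stands out at 50.1% with little let-7c, miR-21 or miR-146b.

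The order of the other 13 pools among themselves was not used by the split, so it was tested there whether miRNAs varied with a muscle score. This score (mean log2(CPM + 1) of miR-1, miR-133a, miR-133b and miR-206, each weighing alike) ran from 9.93 in strain 2 to 11.4 in strain 24. It does not order the pools as the share of muscle reads does. That share was lowest in strain 3 (7.23%, against 8.40% in strain 2) and highest in strain 14 (20.3%, against 16.2% in strain 24). Slopes and correlations below refer to the score. With limma, 0 of 282 miRNAs had a slope on the score that passed an adjusted p of 0.05 (0%), and 16 (5.67%) had an unadjusted p under 0.05. Without the robust option there were 0 and 17. In simulated data, with noise drawn independently for each miRNA, the fit recovered 16% of slopes of size 0.5 and 52% of size 1. With 13 pools, 0 calls therefore does not show that such slopes are absent. miR-378*, lower in the muscle-poor pools, had the smallest p: its slope was 0.71 ± 0.20 log2 per log2 (SE, limma, 13 pools, adjusted p = 0.762). miR-486 had a slope of 0.54 ± 0.24 (limma, unadjusted p = 0.0406, adjusted p = 0.790), miR-365 one of 0.69 ± 0.49, miR-193b of 0.52 ± 0.43, miR-378 of 0.30 ± 0.31 and miR-144 of 0.42 ± 0.34. These slopes, of miRNAs picked from the lower ones, are positive, and none passed. Other lower miRNAs leaned the other way. The score of miR-216a, miR-216b and miR-217 had rho = -0.148 (adjusted p = 0.704 by permutation). That of the Dlk1-Dio3 list had rho = -0.220 (adjusted p = 0.704 by permutation). The signs are therefore not read as agreement with the split. For the miRNAs higher in the muscle-poor pools the slopes were 0.47 ± 0.30 for miR-140, 0.15 ± 0.30 for miR-140*, -0.04 ± 0.14 for miR-24 and 0.45 ± 0.50 for miR-135a, and none passed either. In the miR-183 cluster the slopes were 0.11 ± 0.44 for miR-96, -0.45 ± 0.18 for miR-182 (limma, unadjusted p = 0.0276, adjusted p = 0.790) and -0.39 ± 0.16 for miR-183 (unadjusted p = 0.0243, adjusted p = 0.790). Under TMM those of miR-182 and miR-183 were -0.20 and -0.07, and under median-of-ratios scaling -0.16 and -0.06. The score of that cluster had rho = -0.170 (adjusted p = 0.704 by permutation). The leukocyte miRNAs miR-150 (1.93 ± 0.70) and miR-142-3p (1.11 ± 0.47) had the steepest slopes among the 16, and they did not pass after adjustment either. miR-150 was at 212 CPM in strain 11, 190 in strain 14 and 378 in strain 27, against 12.2 to 67.1 in the rest of the 13.

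List scores were related to the muscle score over the same 13 pools, 20 lists in all with two-sided permutation tests, and none passed after adjustment by either measure. For the brown fat and mitochondria-linked list, r = 0.605 (permutation p = 0.0311, adjusted p = 0.245), rho = 0.698 (permutation p = 0.00997, adjusted p = 0.181), with r = 0.492 without strains 24 and 14, the pools farthest from the median score. For the miR-29 family, r = 0.585 (permutation p = 0.0367, adjusted p = 0.245), rho = 0.654 (permutation p = 0.0181, adjusted p = 0.181), with r = 0.677 without that pair. That family was called by rho without strain 14 (rho = 0.846, adjusted p = 0.0182 by permutation). Its adjusted p was 0.0182 to 0.909 over the alternatives, and its rho was 0.132 with a score from summed CPM, which miR-1 dominates. With that score the brown fat list had rho = 0.0275 (adjusted p = 0.936 by permutation). For smooth muscle, r = 0.495 (permutation p = 0.0860, adjusted p = 0.430), rho = 0.615 (permutation p = 0.0277, adjusted p = 0.185), which became r = 0.544 without that pair. For leukocytes, r = 0.583 (permutation p = 0.0364, adjusted p = 0.245), rho = 0.571 (permutation p = 0.0448, adjusted p = 0.224), which became r = 0.561 without it. The erythroid list had rho = 0.538 (adjusted p = 0.241 by permutation), and for the miR-200 family rho was 0.132 (adjusted p = 0.704). The labels name no batch, and no within-batch value could be computed.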

How the data were processed

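Small RNA libraries of 18 tumour pools, 1 per strain, were analysed from a deposited table of 583 mature miRNA rows and 18 columns, matched to samples through the sample descriptions. The deposited values are log2 with 2 decimals. BWA and mm9 are named per the submitters' processing notes, with no role or version. Counter, annotation and filters were not given there or in the labels. Made linear, each library's values are multiples of what 1 read is worth there (100% of 3707 values under 50 reads came out whole within 0.006 log2).

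Values were made linear, with 0 kept at 0, and the 8 sets of identical rows (20 rows) were counted once, which left 571. CPM were computed over the library total with and without the 5 muscle rows. The library totals, 4357597 to 14943628 reads, limit the precision of low miRNAs. A mean of 10 CPM or more was required and a pseudocount of 1 CPM was added. Medians at least 1 log2 apart, and ranges that do not overlap, were counted without a test. Slopes on the muscle score were fitted in the 13 pools with limma 3.58.1 (trended, robust prior) in R 4.3.3, and list scores were correlated with permutation tests of 100000 resamples. P-values were adjusted by Benjamini-Hochberg at 0.05. They test slopes and correlations against the variation among these 13 pools. With 1 library per strain, differences between strains and between libraries are not separated in them. The fit was tested on simulated data of 282 miRNAs, 50 of them changed. Normal noise was drawn independently for each miRNA at its SD over the 13 pools. Variation that miRNAs share is not in it, so its rates may differ from those in the real data. It called 4 of 25 slopes of size 0.5 (16%) and 13 of 25 of size 1 (52%). Of the 232 unchanged miRNAs it called 2. Python 3.11.15, numpy 2.4.6, pandas 2.3.3, scipy 1.17.1 and matplotlib 3.10.9 were used.

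The pools, lists, alternatives and named miRNAs were chosen with earlier results of these data known. The text names every muscle row, the 10 lowest and 10 highest median differences, the 10 most abundant miRNAs and leading list members. miR-378*, miR-451, the slopes of miR-150 and miR-142-3p and the opposite arms in strain 28 were chosen after their values were seen. Older arm names were matched to RefSeq names by arm for 11 miRNAs. Coordinates are those of RefSeq on GRCm38.p6, not of the authors' build.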

Additional observations from a re-analysis of the deposited data

How the results depend on the processing

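The count of 6 miRNAs with medians at least 1 log2 apart was 5 to 9 when each of the 5 muscle-poor pools was left out in turn (9 without strain 28). It was 2 at a mean of at least 100 CPM, which tests fewer miRNAs, 12 without strains 10 and 28, and 11 without strains 10, 13, 14, 20 and 28. The cause of the last 2 was not tested. The count of miRNAs whose ranges do not overlap, 0 over all pools, was 0 to 1 with 1 muscle-poor pool left out (miR-486 without strain 28), 2 without strains 10 and 28, and 4 without strains 10, 13, 14, 20 and 28 (miR-486, miR-378, miR-434-3p and let-7a*), where fewer pools have to be apart. The 20 named median differences kept their direction in all alternatives run for each, up to 16. They were picked as the largest differences in these same pools, so a kept direction is no test of them. Their sizes moved: the smallest was -0.10 log2 for miR-708 (main value -0.75) and -0.41 for miR-217 (main value -2.27). With muscle rows in the total, the median over all miRNAs was 0.18 log2 against 0.05. Slopes within the 13 pools gave 0 calls in all 22 alternatives, with the smallest adjusted p at 0.212 to 0.9996 and 6 to 35 miRNAs at an unadjusted p under 0.05. Of the 20 lists, 1 was called without strain 14 (the miR-29 family) and 0 in the other 18 alternatives. Using let-7c, miR-21 and miR-146b out of the total, and leaving out each of the 13 pools other than strain 14, was chosen after seeing the data. No paired analysis was possible because each strain has 1 library and the replicate numbers pair nothing.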
